A study of Mus musculus with 15 samples.

Results

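The genes described are those of the cytosolic ribosomal proteins, the protein parts of the ribosome that works outside mitochondria. They were chosen by symbol and abundance: rows named Rps or Rpl plus a number, together with Rplp0, Rplp1, Rplp2 and Rpsa, without rows named as pseudogenes (-ps) and with a mean of at least 10 counts over the 15 libraries. Of the 42807 rows of the count table, 88 symbols matched and 83 reached the minimum, 35 of the small subunit and 48 of the large. The 35 include 3 rows that GENCODE M21 lists as processed pseudogenes, Rps3a2, Rps3a3 and Rps12l1. The abundance of the genes was thus used to choose them and is given only as a description. Just outside the minimum was Rpl3l, with a mean of 8.33 counts, and just inside were Rps12l1 with 215, Rpl22l1 with 303 and Rpl29 with 567. Rpl10l, Rpl39l, Rps12l2 and Rps4l had no count in any library. All 83 genes also passed the filter on low counts of the differential test.

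The libraries were made from C2C12, a line of mouse myoblasts that fuse into myotubes when serum is reduced. Myotubes differentiated for 6 days were left non-treated, given vehicle (0.1% DMSO), or given the herbal extract JGT (Jakyak-gamcho-tang) for 24 h at 20, 100 or 500 µg/mL, with 3 libraries a group. JGT is prepared by boiling equal weights of the roots of peony and licorice. All groups share the cell line, the medium and the differentiation, and the labels name no transgene. The highest dose was set by the submitters at 80% viability. The JGT stock contained DMSO and the labels do not say whether lower doses were brought to the vehicle's content, so dose and DMSO cannot be told apart between the doses. The sample codes of the JGT libraries also form another series than those of the 2 control groups, and code series and treatment cannot be told apart. Whether each library came from its own culture is not stated, so the p-values refer to the variation among these libraries, part or all of which may be technical.

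A ribosome joins one copy of most of these proteins with ribosomal RNA, the small subunit decoding the mRNA and the large subunit forming peptide bonds. In mammals their mRNAs typically begin with a cytosine followed by a run of pyrimidines, the terminal oligopyrimidine (TOP) element, through which mTORC1 and the RNA-binding protein LARP1 adjust their translation and stability together. Skeletal muscle grows largely by making more ribosomes and using them more, and a muscle paralogue, Rpl3l, replaces Rpl3 in mature striated fibres. The data are RNA counts and do not measure translation.

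The start of 6 genes called at the highest dose is shown, because the pyrimidine run is the element these mRNAs are known for. Each line gives the 10 bases before and the 20 bases from the RefSeq transcription start on GRCm38.p6, 5′ to 3′, with capitals marking a cytosine at the start and the pyrimidines that follow it.
Rps6: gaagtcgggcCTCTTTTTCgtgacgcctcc
Rps10: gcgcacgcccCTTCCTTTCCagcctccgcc
Rps18: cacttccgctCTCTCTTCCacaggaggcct
Rpsa: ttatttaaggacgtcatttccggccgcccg
Rps16: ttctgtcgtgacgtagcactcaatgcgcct
Rps23: cggctgggcggggcttcccgcaatgccttg
Rps6 lies at chr4:86857348-86857377, Rps10 at chr17:27635225-27635254 and Rps18 at chr17:33955646-33955675, all on the minus strand. Rpsa lies at chr9:120127756-120127785, Rps16 at chr7:28350679-28350708 and Rps23 at chr13:90923112-90923141, all on the plus strand. Symbols of 60 of the 83 genes matched the RefSeq table, with 71 starts. A cytosine at the start followed by at least 4 pyrimidines was found in 13 of the 60, or 21.7%, against 3.01% of 27025 symbols in the table. CGGAAG or its reverse complement CTTCCG, a core of ETS family sites, was found on either strand in the 300 bases around the start of 41 of the 60, or 68.3%, against 18.8% of all symbols. Of the 13 genes with the pyrimidine start, 2 were called lower and 1 higher at JGT 500 µg/mL, with a median log2 change of −0.17, and of the other 47, 6 were called lower and 0 higher, with a median of −0.05, where 16.8% of all genes were called lower and 16.5% higher. Without replicate 2 of that dose, which stood apart from its group, 8 of the 13 were lower and 1 higher (median −0.26), and 23 of the 47 lower and 7 higher (median −0.10), where 22.6% of all genes were lower and 21.0% higher. The difference between the 2 sets was not tested. The 47 include genes whose pyrimidine run begins with a thymine at the RefSeq start, such as Rpl27a, Rpl7a and Rps24 with runs of 16, 7 and 6. RefSeq starts can differ by a few bases from the starts used in these cells, which were not measured.

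Library totals were 26012844 to 36854199 expected counts. Summed myotube markers had 11869 to 12216 CPM (counts scaled to a common library size) in non-treated libraries, 12532 to 12997 with vehicle, 13012 to 13451 at JGT 20 µg/mL, 12897 to 13318 at 100 µg/mL and 11955 to 12350 at 500 µg/mL. The range at the highest dose was thus below those of vehicle and of the lower doses, but overlapped that of the non-treated libraries. The part of this difference in the results at the highest dose was not tested. Markers of myoblasts and reserve cells summed to 1544 to 1836 CPM in all libraries. Adipocyte markers summed to at most 0.18 CPM with Cidec at 0, leukocyte markers to at most 5.23, endothelial markers to at most 1.99 with Emcn at 0, and epithelial markers to at most 5.96 with Epcam at 0. JGT 500 µg/mL replicate 2 stood apart from its group. The mean chi-square per gene was 20.1 against replicate 1 and 33.1 against replicate 3, where 7.97 separated replicates 1 and 3 and sampling noise gives about 1. Counts of called genes against vehicle at that dose are therefore also given without it.

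Ribosomal protein mRNAs were abundant and unequal. Per kilobase of the principal transcript, the median of the 80 protein-coding genes was 401 CPM in vehicle libraries, and the middle 80% of genes ran from 163 to 720. Rpl41, which encodes the shortest protein of the large subunit, was highest at 1356 CPM per kilobase, followed by Rpl23a at 1100 and Rps15 at 1062. Rpl22l1, a paralogue of Rpl22, was lowest at 17.5, followed by Rpl29 at 37.0 and Rpl7l1, a paralogue of Rpl7, at 62.5. These levels depend on how the authors' software shared reads among copies: 83.5% of the expected counts of these genes were not whole numbers, against 9.34% over the table. For 57 of the genes the table also holds pseudogene rows, 248 in all, and 53 of those had a mean of at least 10 counts.

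The summed share of all counts taken by the 83 genes changed little. It was 2.71, 2.695 and 2.61% in non-treated libraries, 2.53, 2.67 and 2.66% with vehicle, 2.61, 2.58 and 2.65% at JGT 20 µg/mL, 2.60, 2.63 and 2.56% at 100 µg/mL, and 2.42, 2.63 and 2.45% at 500 µg/mL. At the highest dose, replicates 1 and 3 lay below all other libraries, while replicate 2 lay among the controls. The mean at 500 µg/mL was 2.50 ± 0.109% (SD, n = 3) against 2.62 ± 0.0771% with vehicle, a difference of −0.121 percentage points (exact two-sided permutation test, p = 0.2, adjusted p = 0.7 over 7 comparisons, smallest possible p = 0.1). None of the other 6 comparisons had a smaller p. The share of the small subunit genes went from 0.965 ± 0.0278% with vehicle to 0.960 ± 0.0138, 0.947 ± 0.00510 and 0.920 ± 0.0177% at the rising doses (SD, n = 3). Its 3 libraries at 500 µg/mL lay below all of those at 20 and 100 µg/mL but not below all of vehicle (500 against vehicle, exact permutation p = 0.2, adjusted p = 0.467). For the large subunit genes the means were 1.66 ± 0.0496% with vehicle and 1.58 ± 0.0919% at 500 µg/mL (exact permutation p = 0.3, adjusted p = 0.9). In bulk RNA, fewer cells of a type and less RNA per cell cannot be told apart.

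**Figure D1:**
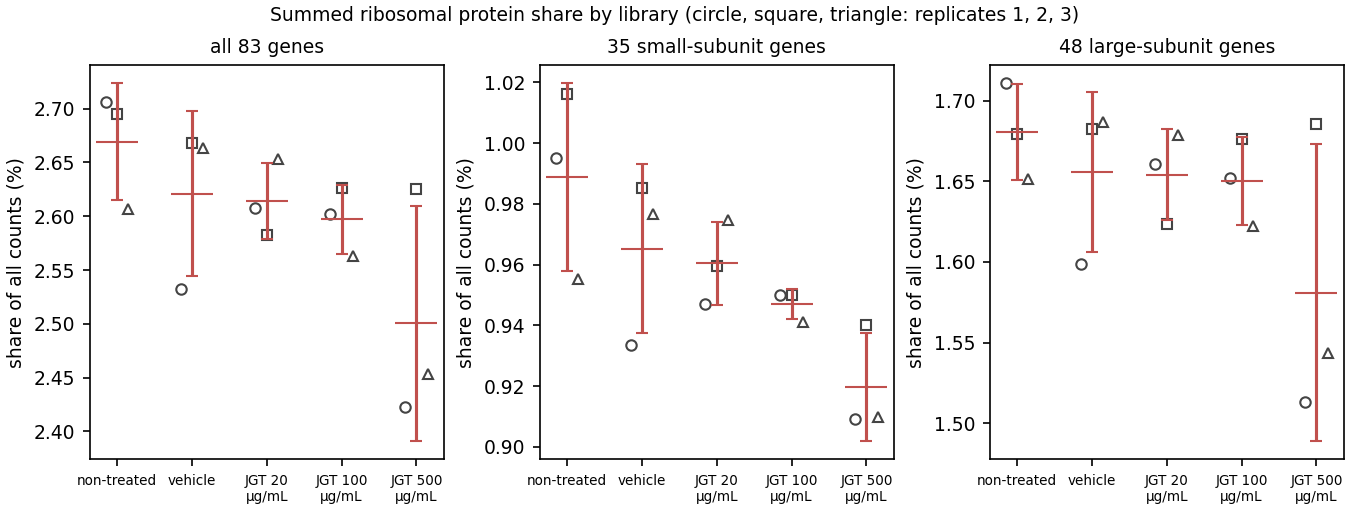
Share of all counts (%) taken by the 83 genes, the 35 small-subunit genes and the 48 large-subunit genes in each of the 15 libraries, with the group mean and SD in red (n = 3; axes do not start at 0). At JGT 500 µg/mL the circle and triangle (replicates 1 and 3, 2.42 and 2.45% in the left panel) lie below the square (replicate 2, 2.63%).

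At the lower doses no ribosomal protein gene was called in edgeR's quasi-likelihood test, in which a gene counts as called at a Benjamini-Hochberg adjusted p below 0.05 over all 14461 genes tested. Between JGT 20 µg/mL and vehicle 0 of 83 were higher and 0 lower, where 0.173% of all genes were higher and 0.152% lower, and 2 of the 83 had an unadjusted p under 0.05 (10.6% of all genes). Between 100 µg/mL and vehicle the counts were again 0 and 0 (2.09% of all genes higher, 2.22% lower), with 2 at an unadjusted p under 0.05 (16.0% of all genes). The same held between 100 and 20 µg/mL (0.297% and 0.131% of all genes), with 1 at an unadjusted p under 0.05 (7.53% of all genes). DESeq2 called none in these 3 comparisons. Median log2 changes of the 83 genes were −0.01, −0.02 and −0.01, beside 0.00, 0.00 and 0.00 for all genes. The smallest adjusted p at 100 µg/mL belonged to Rps19 (log2 −0.15, adjusted p = 0.147), followed by Rpl41 (log2 0.11, adjusted p = 0.199).

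Vehicle and non-treated myotubes were also separated by 0 calls in either direction among the 83 (0.553% of all genes higher and 0.754% lower with vehicle). Here 16 of the 83 had an unadjusted p under 0.05, near the share of all genes (16.7%). DESeq2 called 3 lower and 0 higher, and its share over all genes is not given here. The median of the 83 was −0.04 beside 0.00 for all genes. The smallest adjusted p was that of Rps6, the protein phosphorylated by S6 kinase, whose 3 vehicle libraries (484, 477 and 468 CPM) lay below the 3 non-treated ones (537, 557 and 526 CPM; log2 −0.18, edgeR adjusted p = 0.0591).

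At JGT 500 µg/mL, 10 of the 83 genes were called against vehicle, 9 lower and 1 higher, while 73 were not. The share of all genes called lower was 16.8% and higher 16.5%, so the ribosomal protein genes were called no more often in either direction than the table as a whole. Their median log2 change was −0.08 beside 0.01 for all genes, and 56 of the 83 estimates were negative. It stayed negative with library totals in place of TMM scaling (−0.07, with all genes at 0.02) and with DESeq2's size factors (−0.08, with all genes at 0.00). The small subunit held 7 of the 9 lower genes and the single higher one, with a median of −0.13 over 35 genes. Among the 48 large-subunit genes 2 were lower and 0 higher, with a median of −0.05. The difference between the subunits was not tested.

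**Figure D2:**
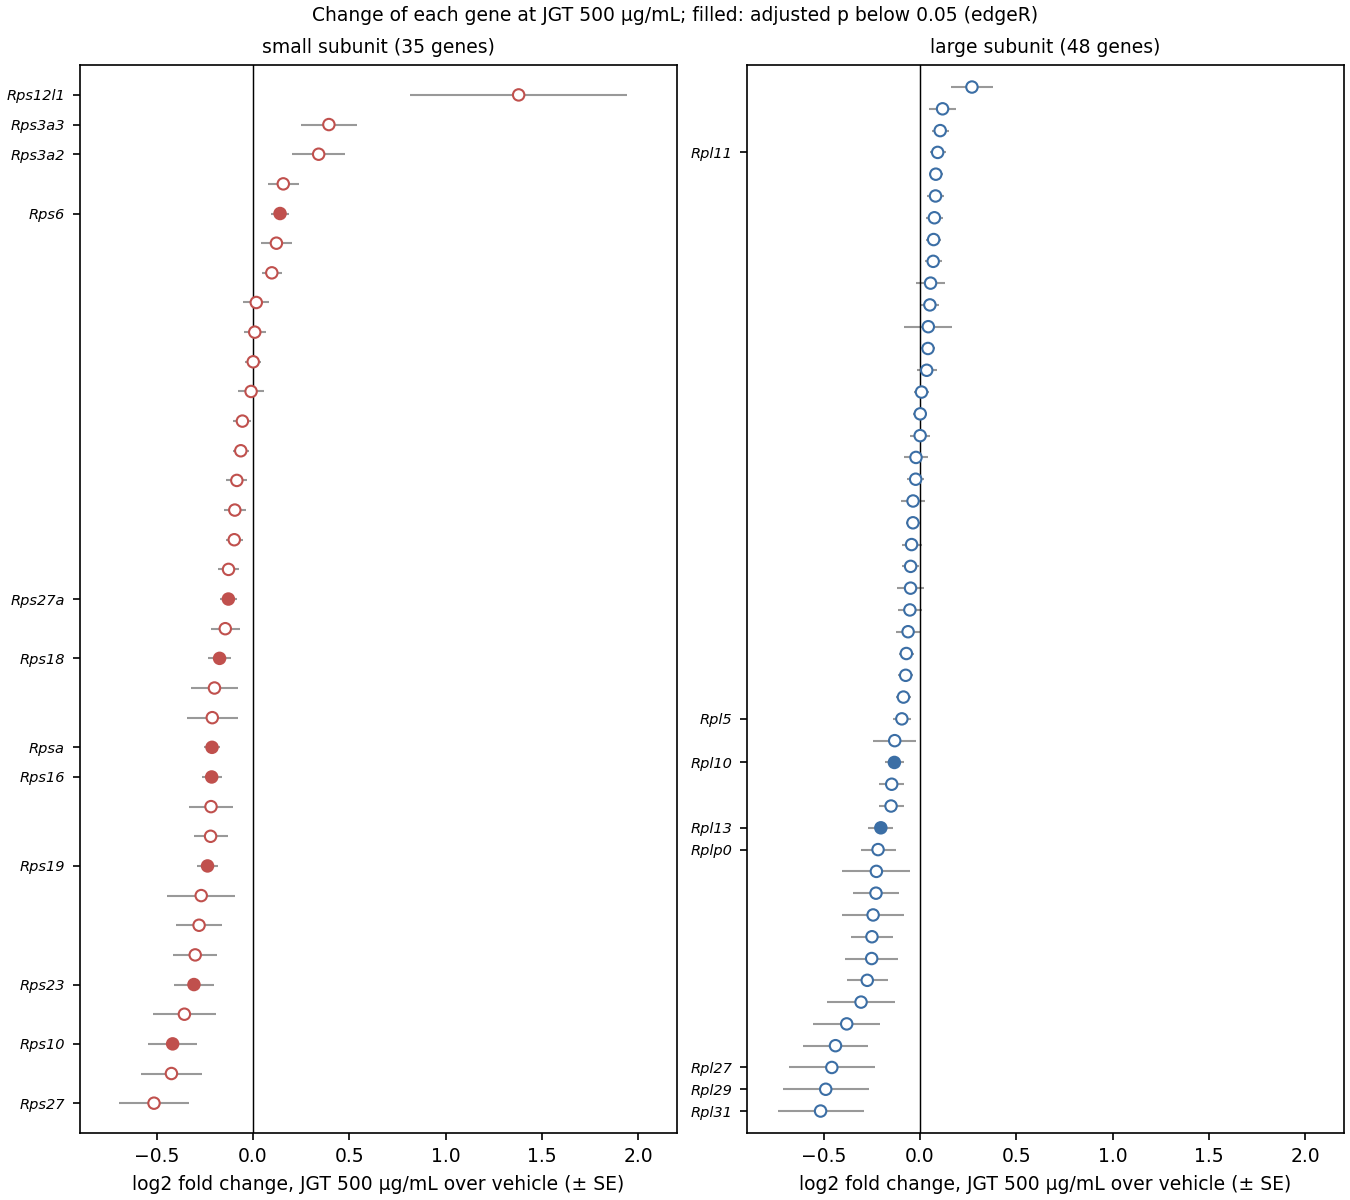
Log2 fold change with its standard error for each of the 83 genes, JGT 500 µg/mL over vehicle (n = 3 a group), sorted by size, small subunit left and large subunit right; filled points have an edgeR adjusted p below 0.05, and names are given for these and some other genes of the text. Filled points on the left of 0 number 7 and 2, and Rps6 is the filled point on the right; the largest estimates, such as Rpl31 at −0.52 and Rps12l1 at 1.38, have wide errors and are open.

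Rpsa, known also as a laminin receptor, encodes a protein on the solvent side of the small subunit and fell at the highest dose. Its non-treated libraries had 1045, 1014 and 991 CPM, its vehicle libraries 966, 1015 and 974, those of JGT 20 µg/mL 952, 955 and 976, those of 100 µg/mL 972, 987 and 967, and those of 500 µg/mL 886, 879 and 784. All 3 libraries at 500 µg/mL lay below all 12 others. The log2 change against vehicle was −0.21 ± 0.0422 (SE; edgeR adjusted p = 0.000594), a fall from 985 ± 26.2 to 850 ± 57.1 CPM (SD, n = 3). It was also called against 100 µg/mL (−0.20, adjusted p = 0.00221) and 20 µg/mL (−0.18, adjusted p = 0.00397). The gene lies at chr9:120127689-120132369 on the plus strand (GRCm38, GENCODE M21).

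Rps19, whose human gene is the one most often mutated in Diamond-Blackfan anaemia and whose protein acts in small subunit maturation, fell by 0.24 on the log2 scale against vehicle. Its CPM were 117, 134 and 123 in non-treated, 122, 128 and 135 in vehicle, 120, 137 and 134 at 20 µg/mL, 117, 113 and 116 at 100 µg/mL, and 105, 116 and 107 at 500 µg/mL. The 500 µg/mL libraries lay below those of vehicle and of 20 µg/mL but overlapped those of 100 µg/mL. Against vehicle the standard error was 0.0562 (edgeR adjusted p = 0.00313), and against 20 µg/mL the change was −0.26 (adjusted p = 0.00215). Against 100 µg/mL it was −0.08 and was not called (adjusted p = 0.333).

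Rps16, a small-subunit protein near the decoding site, had 167, 176 and 168 CPM in non-treated libraries, 167, 173 and 186 in vehicle, 165, 167 and 174 at 20 µg/mL, 166, 165 and 165 at 100 µg/mL, and 139, 166 and 148 at 500 µg/mL. Replicate 2 at the highest dose was just below the lowest vehicle library, and replicates 1 and 3 were well below it. The log2 change was −0.21 ± 0.0511 (SE; edgeR adjusted p = 0.00299). Rpsa, Rps16 and Rps19 were the only 3 genes that were both called against vehicle and free of overlap with it, all 3 lower, where 15.5% of all genes met both conditions as lower and 14.5% as higher. Their calls also held in each of the 14 other settings tried, among them each of the 6 libraries of the 2 groups left out in turn and non-treated in place of vehicle.

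**Figure D3:**
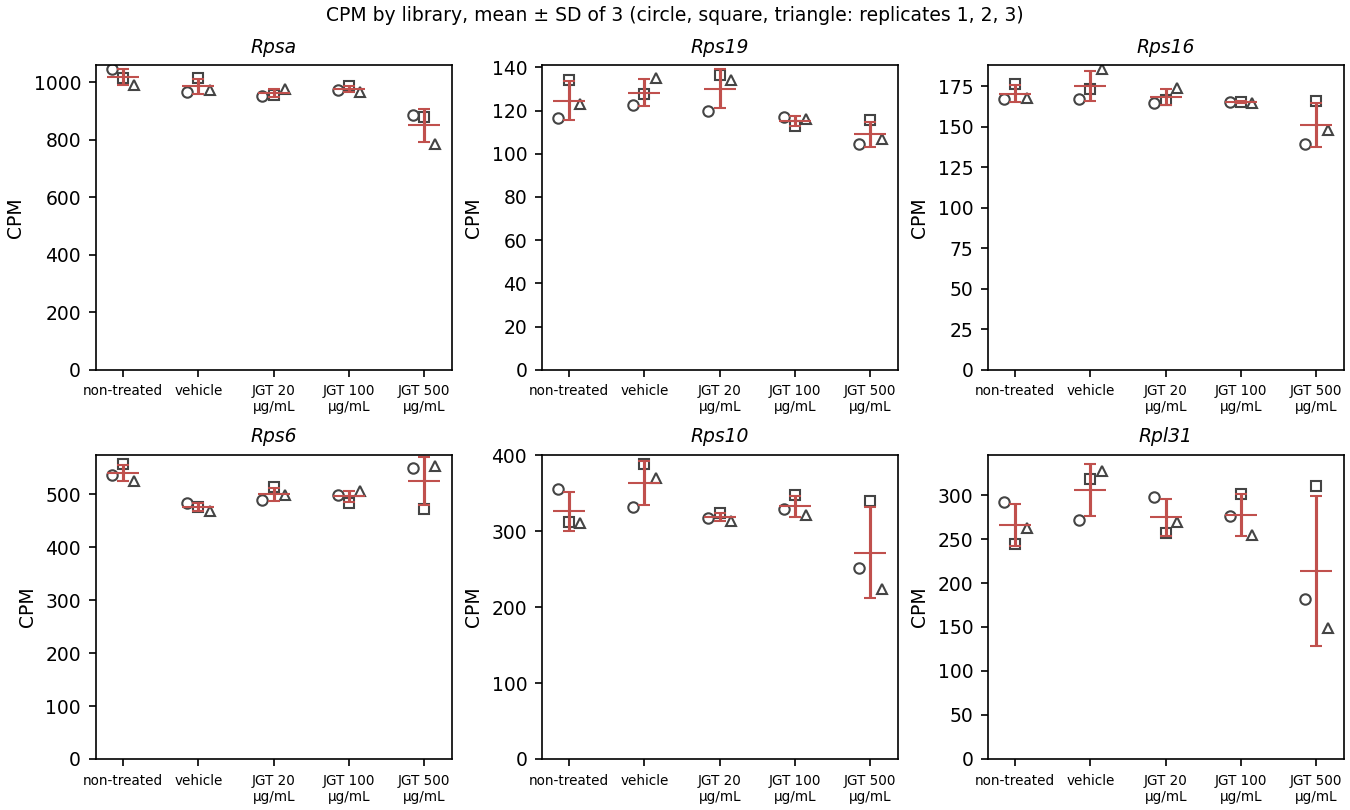
CPM of Rpsa, Rps19, Rps16, Rps6, Rps10 and Rpl31 in each library (symbols by replicate number) with the group mean and SD in red (n = 3). At JGT 500 µg/mL Rpsa lies below all other libraries, and Rps10 and Rpl31 show replicate 2 (340 and 310 CPM) far above replicates 1 and 3.

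The other 7 called genes overlapped vehicle in at least 1 library at 500 µg/mL. Except Rps6, Rps27a and Rpl10, they are named because they were called, after their values were seen. Rps10, a protein on the head of the small subunit, had 332, 389 and 370 CPM in vehicle and 252, 340 and 224 at 500 µg/mL (log2 −0.42 ± 0.127, SE, edgeR adjusted p = 0.0273). Rps23, which lines the decoding centre, had 325, 342 and 326 CPM against 237, 329 and 237 (log2 −0.31, adjusted p = 0.0398). In both genes replicate 2 lay within the vehicle range and the other 2 libraries far below it. Rps18 (log2 −0.17, adjusted p = 0.0286) and Rps27a, made as a fusion with ubiquitin (log2 −0.13, adjusted p = 0.0349), also had replicate 2 within the vehicle range and replicates 1 and 3 below it. Of the large subunit, Rpl13 went from 426 ± 17.0 to 370 ± 47.1 CPM (SD, n = 3; adjusted p = 0.0233) and Rpl10, which joins the subunit late in its assembly, from 556 ± 22.6 to 507 ± 48.1 CPM (adjusted p = 0.0441). Each of these 6 falls lost its call in 6 to 8 of the 14 other settings, always with the same direction.

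Rps6 was the single gene called higher. Its libraries had 549, 473 and 553 CPM at 500 µg/mL, so replicates 1 and 3 lay above the vehicle libraries and replicate 2 among them (log2 0.14 ± 0.0470, SE, edgeR adjusted p = 0.0258). The non-treated libraries, at 526 to 557 CPM, were as high as these. Against non-treated myotubes the change at 500 µg/mL was −0.04 (adjusted p = 0.558), so the rise depends on the control.

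The stalk of the large subunit, which recruits elongation factors, showed 0 calls among its 4 genes (16.8% of all genes were lower and 16.5% higher). Rplp0, its base, had 1008, 1107 and 1075 CPM in vehicle and 838, 1105 and 800 at 500 µg/mL (log2 −0.22, edgeR adjusted p = 0.0848). The values of replicates 1 and 3 were lower than in any other library, while that of replicate 2 was within the vehicle range. Rplp1 (log2 −0.06, adjusted p = 0.480), Rplp2 (log2 0.06, adjusted p = 0.620) and Rpl12 (log2 0.08, adjusted p = 0.179) lay closer to vehicle. Without replicate 2, Rplp0 was called lower (log2 −0.38, adjusted p = 2.06e-08) and Rpl12 higher (log2 0.14, adjusted p = 0.00272). The rise of Rpl12 is relative to vehicle, at 418, 429 and 404 CPM. Its non-treated libraries had 461, 471 and 453 CPM, and those at 500 µg/mL 457, 403 and 464. Rpl5 and Rpl11, which with 5S ribosomal RNA bind the p53 inhibitor Mdm2 when free of the ribosome, were not called against vehicle either (log2 −0.09 and 0.09, adjusted p = 0.122 and 0.0970). Rpl11 had 257, 262 and 279 CPM at 500 µg/mL, all above the vehicle libraries at 243, 252 and 255. Rpl5 had 365, 422 and 366 CPM against 408, 399 and 424, and was called lower against 20 µg/mL (log2 −0.13, adjusted p = 0.0442). Without replicate 2, Rpl5 was called lower against vehicle too (log2 −0.17, adjusted p = 0.000242), while Rpl11 was not called (log2 0.10, adjusted p = 0.0621).

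Of 9 genes tied to Diamond-Blackfan anaemia, Rps19 and Rps10 fell and 7 were not called, with a median of −0.09. Of all genes, 16.8% were lower and 16.5% higher. Without replicate 2, 5 of the 9 were lower, including Rps19, Rps10, Rps7 and Rpl5, and Rps24 was called higher. The median was then −0.17, where 22.6% of all genes were lower and 21.0% higher. Rps24 had 447, 466 and 437 CPM in non-treated libraries, 383, 388 and 376 in vehicle and 470, 360 and 451 at 500 µg/mL. Its rise is thus relative to vehicle. Among paralogues, 4 of 7 had enough counts for the test, Rpl3l among them, and 0 were called. Rps27l, a p53-inducible copy of Rps27, had 48.7, 59.5 and 52.4 CPM in vehicle and 41.6, 58.1 and 39.5 at 500 µg/mL (log2 −0.20, edgeR adjusted p = 0.237). Within each group its libraries had the same order as those of Rps27 itself (227, 274 and 263 CPM against 152, 241 and 142, log2 −0.51, adjusted p = 0.0548). Rpl22l1 had 8.52 to 10.5 CPM in vehicle and 8.81 to 11.7 at 500 µg/mL (log2 0.04, adjusted p = 0.819), while Rpl22 had 133 to 135 and 140.5 to 145 (log2 0.08, adjusted p = 0.0760). Rpl7l1 (log2 −0.09, adjusted p = 0.0868), Rpl7 (log2 −0.02, adjusted p = 0.735), Rpl3 (log2 −0.05, adjusted p = 0.425), Rpl39 (log2 −0.13, adjusted p = 0.412) and Rps4x (log2 −0.06, adjusted p = 0.250) were not called. Without replicate 2, lower calls came to Rps27l (log2 −0.40, adjusted p = 1.32e-05), Rpl7l1 (log2 −0.10, adjusted p = 0.0405), Rps27 (log2 −0.80, adjusted p = 0.000597) and Rpl39 (log2 −0.28, adjusted p = 0.0390). Rpl3l, the muscle form, had 9, 5 and 7 counts in non-treated libraries, 11, 6 and 7 in vehicle, 11, 10 and 9 at 20 µg/mL, 13, 8 and 14 at 100 µg/mL and 4, 7 and 4 at 500 µg/mL. Such counts show only that its RNA was scarce in these myotubes beside Rpl3. Over the 15 libraries, Rpl3 had a mean of 12067 counts (361 to 429 CPM) and Rpl3l a mean of 8.33 counts.

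Against the lower doses of JGT, few genes separated the highest dose. Compared with 100 µg/mL, Rpsa was the 1 gene called lower and 0 were higher (10.7% and 9.05% of all genes), with a median of −0.07. Compared with 20 µg/mL, Rps19, Rpsa, Rps16 and Rpl5 were lower and 0 genes were higher (12.2% and 11.1% of all genes), with a median of −0.08. The call against 20 µg/mL was lost in 7 of 13 other settings for Rpl5, 6 for Rps16, 1 for Rpsa and 0 for Rps19. The unadjusted p was under 0.05 for 11 of the 83 genes in each of these comparisons (32.3% of all genes against 100 µg/mL and 34.8% against 20 µg/mL). Comparisons with vehicle, 100 and 20 µg/mL share the 500 µg/mL libraries, so they are not independent of each other.

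The counts at 500 µg/mL changed most when replicate 2 was left out. Without it, 42 of the 83 genes were called lower and 11 higher against vehicle, beside 22.6% and 21.0% of all genes, and the median was −0.11. Lower calls were then more frequent, and higher calls less frequent, among the 83 than in the table as a whole. The small subunit then had 21 lower and 6 higher of 35, and the large subunit 21 lower and 5 higher of 48. The 6 higher include the processed pseudogenes Rps3a2, Rps3a3 and Rps12l1. Against 100 µg/mL, 38 were lower and 6 higher (18.3% and 16.1% of all genes), and against 20 µg/mL 42 lower and 6 higher (18.8% and 16.9% of all genes). With only 2 libraries left at that dose, the spread in this fit comes mostly from the other groups. Replicate 2 was singled out after its values were seen.

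Replicate by replicate, 55 of the 83 genes lay below the vehicle range in replicate 1, 49 in replicate 3 and 17 in replicate 2, where 38.4, 39.2 and 34.6% of all genes did. Above it lay 19, 27 and 13 (39.3, 39.5 and 35.2% of all genes). Median log2 ratios to the vehicle mean were −0.15, −0.09 and −0.01 for replicates 1, 3 and 2. Replicate 2 lay above both others in 49 genes, below both in 21 and between them in 13. Within-group spread of these genes was widest at 500 µg/mL, with a median SD of 0.13 on the log2 scale, against 0.05 to 0.08 in the other 4 groups. The 3164 other genes compared lay at or above a floor low in the abundance range of the 83 and were not matched further. Their median SD was 0.07 at 500 µg/mL and 0.03 to 0.04 elsewhere.

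**Figure D4:**
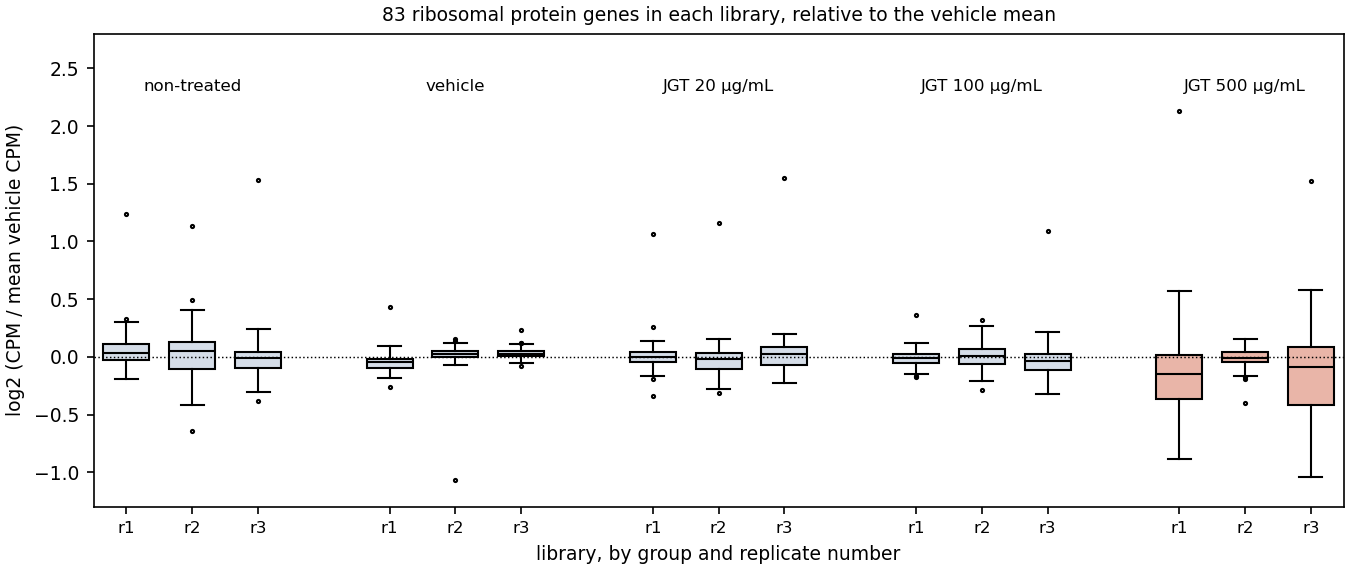
Log2 ratio of each of the 83 genes to its mean CPM in vehicle, as 1 box per library (line: median, box: quartiles, whiskers: within 1.5 box lengths, points: genes beyond). At JGT 500 µg/mL (red boxes) replicates 1 and 3 have medians of −0.15 and −0.09 and wide boxes, while replicate 2 has a median of −0.01 and a narrow one; the high points are Rps12l1.

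Among the genes in which replicate 2 was higher than the others, the widest gaps were those of Rpl31, Rpl29, Rpl27 and Rps27, named after their values were seen. A pseudogene row described further on, Rps12l1, had a wider gap in the other direction. Rpl31, at the exit of the peptide tunnel, had 271, 318 and 327 CPM in vehicle and 181, 310 and 148 at 500 µg/mL (log2 −0.52 ± 0.223, SE, edgeR adjusted p = 0.103). Rpl27 had 250, 291 and 285 CPM against 173, 286 and 140.5, and Rpl29 18.0, 23.8 and 23.0 against 11.7, 22.0 and 11.8. In all 4 genes replicates 1 and 3 were lower than every library of the other groups, and replicate 2 was inside the vehicle range. Without replicate 2, the log2 changes were −0.90 for Rpl31 (adjusted p = 0.000338), −0.88 for Rpl29, −0.82 for Rpl27 and −0.80 for Rps27, all called. These genes also varied among libraries that had no JGT. In the non-treated group replicate 2 was the lowest for each, with 206 CPM against 285 and 248 for Rpl27, and 194 against 245 and 210 for Rps27.

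Changes were also set out by transcript length, as a description. Of the 80 genes with a principal transcript, the 40 of at most 705 bases had median log2 ratios to vehicle of −0.28, 0.00 and −0.19 in replicates 1, 2 and 3 at 500 µg/mL, and the 40 longer ones −0.13, −0.01 and −0.06. For 229 other genes of at most 705 bases the medians were −0.09, 0.04 and −0.09, and for 9503 longer ones 0.01, 0.00 and 0.01. Mitochondrial transcripts took 4.27, 4.94 and 3.47% of counts in the same libraries. The part of transcript length, of RNA composition and of library preparation in the fall of these genes was not tested.

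**Figure D5:**
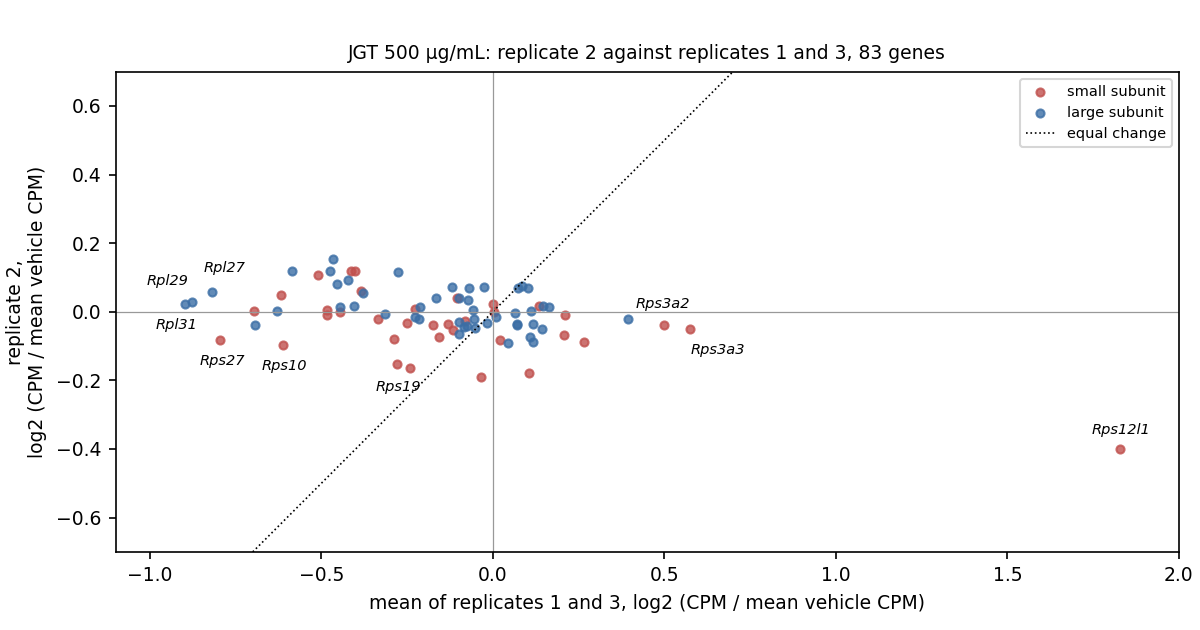
Log2 ratio to the vehicle mean of each of the 83 genes at JGT 500 µg/mL, replicate 2 (vertical) against the mean of replicates 1 and 3 (horizontal), on equal scales; the dotted line marks equal change. Points spread along the horizontal axis and stay near 0 on the vertical one, with Rpl31, Rpl29, Rpl27 and Rps27 at the left and Rps3a3 and Rps12l1 at the right, and Rps19 lies close to the line.

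The genes that went the other way in replicates 1 and 3 included processed pseudogenes. GENCODE M21 lists Rps3a2 on chromosome 14, Rps3a3 on chromosome 13 and Rps12l1 on chromosome 7 as such, and reads of a parent gene and its copy cannot be told apart with certainty. Rps3a2 had 305, 283 and 287 CPM in vehicle and 408, 284 and 417 at 500 µg/mL (log2 0.34, edgeR adjusted p = 0.0847), and Rps3a3 192, 177 and 171 against 268, 174 and 269 (log2 0.39, adjusted p = 0.0608). Rps3a1, the parent gene, had 237, 259 and 240 against 208, 233 and 233 (log2 −0.13, adjusted p = 0.0741). The sum of the 3 rows was 735, 719 and 699 CPM in vehicle and 885, 692 and 919 at 500 µg/mL. Rps12l1 had 4.70, 1.66 and 4.08 CPM against 15.2, 2.64 and 10.0, with all values not whole numbers (log2 1.38, adjusted p = 0.0871), while Rps12 had 368, 397 and 386 against 411, 339 and 415. In non-treated libraries the means were 340 CPM for Rps3a2, 231 for Rps3a3 and 8.64 for Rps12l1. These lay above the vehicle means of 292, 180 and 3.48 and near those at 500 µg/mL (370, 237 and 9.30). The rises of these pseudogenes are thus relative to vehicle. With the pseudogenes added to their parent genes, the calls at 500 µg/mL stayed at 9 lower and 1 higher. The shares of all genes under that setting are not given here. Without the addition they were 16.8% lower and 16.5% higher. Without replicate 2, Rps3a2 (log2 0.49, adjusted p = 0.00283), Rps3a3 (log2 0.57, adjusted p = 0.000148) and Rps12l1 (log2 1.83, adjusted p = 0.00279) were called higher and Rps3a1 lower (log2 −0.16, adjusted p = 0.0488).

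Pseudogene rows left out by the rule held a large part of the reads of some families. The row Rps2-ps10 had 932 ± 65.0 CPM in vehicle and 1013 ± 165 at 500 µg/mL (SD, n = 3), above Rps2 itself at 401 ± 19.9 and 437 ± 47.0. Neither row was called (edgeR adjusted p = 0.442 and 0.276). Rpl3-ps1 fell from 245 ± 17.1 to 212 ± 26.04 CPM (adjusted p = 0.0205), although Rpl3 was not called. Adding all such rows to their genes gave 10 lower and 1 higher at 500 µg/mL, and the shares of all genes under that setting are not given here. The 8 genes whose expected counts were whole numbers in all libraries, within 0.005, had a median of −0.08 and 0 edgeR calls. Of all genes, 16.8% were called lower and 16.5% higher. An unadjusted p was under 0.05 for 3 of the 8 and for 43.2% of all genes. Without replicate 2, 4 of the 8 were lower and 0 higher (22.6% and 21.0% of all genes), with a median of −0.07.

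Other proteins of the cytosolic ribosome have symbols that the rule does not match. Among them, Gnb2l1 (log2 −0.10, edgeR adjusted p = 0.131), which encodes RACK1, and Fau (log2 0.10, adjusted p = 0.174), which encodes the protein eS30, were not called at 500 µg/mL. The rest of this list is not reported here, and Gnb2l1 and Fau do not stand for it. Without replicate 2, Fau was called higher (log2 0.15, adjusted p = 0.0170). Of 77 genes for proteins of the mitochondrial ribosome, 10 were called higher and 4 lower, with a median of 0.02. Of all genes, 16.5% were higher and 16.8% lower. Mrpl51 rose (log2 0.24), and Mrps10 (log2 −0.21) and Mrpl20 (log2 −0.22) fell. Without replicate 2 the mitochondrial counts were 11 higher and 21 lower, with a median of −0.02, where 21.0% and 22.6% of all genes were.

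Genes that share the TOP element or act with ribosomes are given by lists drawn up with earlier results of these data known. Of 4 noncoding snoRNA host genes with a TOP start, Gas5 (log2 −0.34 ± 0.0598, SE, edgeR adjusted p = 0.000166), Snhg12 (log2 −0.33, adjusted p = 0.000314) and Snhg5 (log2 −0.18, adjusted p = 0.0370) fell, and the median was −0.25. The same 3 were lower without replicate 2. Of all genes, 16.8% were lower at 500 µg/mL, and 22.6% without replicate 2. Of 17 other TOP genes of translation, 2 rose and 2 fell, where 16.5% and 16.8% of all genes did, and the median was 0.06. Eif4b, an initiation factor downstream of S6 kinase, went from 416 ± 3.50 to 484 ± 36.1 CPM (SD, n = 3; log2 0.22, adjusted p = 0.000456), and all its libraries at 500 µg/mL were above vehicle. Eef1d, called higher (log2 0.17, adjusted p = 0.0356), had 142, 147 and 140 CPM in vehicle and 169, 140 and 176 at 500 µg/mL. Its non-treated libraries, at 154, 167 and 154 CPM, were also above vehicle. Eif3l, called lower (log2 −0.23, adjusted p = 0.0312), had 237, 251 and 240 against 196, 243 and 182. In these 2 genes replicate 2 was not on the same side of vehicle as the other 2 libraries. Without it, 6 of the 17 were higher and 4 lower, where 21.0% and 22.6% of all genes were. Among 22 initiation factors 6 rose and 2 fell, where 16.5% and 16.8% of all genes did, with a median of 0.03. Eif5a (log2 −0.22) and Eif2s3x (log2 −0.13) were the falls, and Eif4a2 (log2 0.15), a helicase, was among the rises. Without replicate 2, 9 of the 22 were higher and 3 lower, where 21.0% and 22.6% of all genes were.

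Of 18 genes of the mTORC1 pathway and of TOP mRNA control, 3 rose and 3 fell, near the shares of all genes (16.5% and 16.8%), with a median of −0.02. Without replicate 2, 4 were higher and 5 lower, where 21.0% and 22.6% of all genes were. Mtor, the kinase, rose from 123 ± 3.29 to 138 ± 5.93 CPM (SD, n = 3; log2 0.16, edgeR adjusted p = 0.00425). Ddit4, a stress-induced inhibitor of mTORC1, rose (log2 0.37, adjusted p = 0.00591), and Rps6kb1, the S6 kinase, fell (log2 −0.16, adjusted p = 0.00273). Of 26 genes of ribosomal RNA synthesis and ribosome assembly, 2 rose and 7 fell, where 16.5% and 16.8% of all genes did. The median of the 26 was −0.05. Leaving out replicate 2 gave 5 higher and 7 lower, where 21.0% and 22.6% of all genes were. Sbds, which releases eIF6 from the large subunit, rose from 73.6 ± 0.930 to 91.6 ± 6.91 CPM (log2 0.32 ± 0.0468, SE, adjusted p = 2.72e-05). Polr1b, a subunit of RNA polymerase I, fell (log2 −0.22, adjusted p = 0.00210), as did Nop56, a core protein of box C/D snoRNPs (log2 −0.17, adjusted p = 0.0154).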

How the data were processed

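RNA sequencing of 15 libraries of mouse C2C12 myotubes was used as 1 table of expected counts per gene, made and deposited by the authors. The submitters' processing notes name RSEM 1.3.3, STAR 2.7.3a, Trim Galore 0.6.5 and FastQC 0.11.9, with GRCm38 (mm10). Not given in the sources used here: annotation, strand option and settings. Expected counts were rounded to whole numbers. Genes passing edgeR's filterByExpr (14461) were tested in 1 fit of all 15 libraries with a mean per group, TMM scaling (factors 0.988 to 1.02) and the quasi-likelihood F test (edgeR 4.0.16, R 4.3.3, 10 residual degrees of freedom), with Benjamini-Hochberg adjustment over all genes and a threshold of 0.05. CPM are TMM-scaled. The mean chi-square per gene between replicates was 1.97 to 33.1, above the about 1 of sampling noise in every pair, so no pair was counted as 1 library. The members and lists were chosen with earlier results of these data known. Named genes were the paralogues and their core genes, the stalk, Rpl5, Rpl11, Rpsa, Rps6, Rps27a, Rps19, up to 4 called genes a direction without overlap, and of each other list the 3 smallest p at 500 µg/mL. Some items of these lists are not reported here. Alternatives were library totals, no filter, a replicate block, only the 2 groups compared, non-treated as control, pseudogene rows added, DESeq2 1.42.0 and each library left out. Coordinates are from GENCODE M21 and RefSeq, both GRCm38. Single-sample intervals were not used, as groups have 3 libraries and p-values cover counting and library error together.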

Additional observations from a re-analysis of the deposited data

How the results depend on the processing

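Every count of called genes below is out of the ribosomal protein genes in the fit, and p-values are edgeR's unless DESeq2 is named. Except without JGT 500 µg/mL replicate 2, the shares of all genes called under these settings are not given here. The counts therefore cannot be set against the table as a whole. At 500 µg/mL against vehicle (9 lower, 1 higher), fitting only those 2 groups gave 3 lower and 0 higher, DESeq2 16 lower and 4 higher, library totals 3 higher, and non-treated as control 0 higher, where Rps6 turned to −0.040. Leaving out each library in turn gave 3 to 42 lower and 0 to 11 higher, the highest values without JGT 500 µg/mL replicate 2; without vehicle replicate 2 or 3, or JGT 500 µg/mL replicate 1 or 3, it was 3 lower and 0 higher. Against 100 µg/mL (1 lower), no filter gave 2, a replicate block 2 and only the 2 groups 0, and leaving out libraries gave 1 to 38 lower and 0 to 6 higher. Against 20 µg/mL (4 lower), library totals gave 2 and only the 2 groups 1, and leaving out libraries 2 to 42 lower and 0 to 6 higher; the 2 came without JGT 20 µg/mL replicate 3 and without JGT 500 µg/mL replicate 1. Vehicle against non-treated (0 calls) gave 3 lower with no filter, 3 lower with DESeq2, and 8 lower and 1 higher with only the 2 groups. At 100 µg/mL against vehicle (0 calls), only the 2 groups gave 1 lower and 1 higher, and non-treated as control 1 lower, as it did at 20 µg/mL. Leaving out libraries moved the median change at 20 µg/mL between −0.029 and 0.010, and the share differences at 20 µg/mL between −0.0512 and 0.0166 and at 100 µg/mL between −0.0685 and −0.000690 percentage points, the lowest each without vehicle replicate 1. The cause of these changes was not tested. Replicate numbers did not pair the samples (correlations of same-numbered libraries −0.21 to 0.12), and the replicate block gave 10 lower at 500 µg/mL against vehicle; 500 against 100 µg/mL was the one comparison in which each library correlated best with its own number. Pseudogene members summed with their gene, and the share without them, were alternatives chosen after seeing the data.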
